A study of Mus musculus with 12 samples.

Results

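MeVa2.1.dOVA and MeVa2.2.dOVA are mouse melanoma cell lines, and their messenger RNA was compared across all genes with enough reads to be tested. The comparison was chosen by the line named in each library's title: 6 of the 12 libraries of the series belong to it, 3 of MeVa2.1.dOVA and 3 of MeVa2.2.dOVA. MeVa2.1.dOVA is the line that the series title calls immune-refractory. The other 6 libraries are 3 of MeVa2.1 and 3 of MeVa2.2, the lines with the same names and without dOVA, which are called the parental lines here. According to the labels all 4 lines were untreated, of genotype WT, and came from a subcutaneous tumor of the skin. The labels do not spell out dOVA, do not name the melanoma driver alleles, and do not say whether a line is 1 clone or whether the replicates are separate cultures, so the p-values measure the spread between these libraries, which may be technical.

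Type I and type II interferons are secreted by cells that sense infection or damage. They bind receptors that activate JAK kinases, which phosphorylate STAT proteins; these join IRF9 and switch on the interferon-stimulated genes. Among the products are antiviral enzymes, GTPases, and the machinery that cuts peptides and loads them on MHC class I, the molecule through which CD8 T cells recognise a tumor cell. Melanoma cells also shift between a pigmented state and dedifferentiated, neural crest-like or mesenchymal states.

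The 6 libraries held 16181816, 17412714 and 34744387 gene counts in MeVa2.1.dOVA and 18543632, 18753182 and 33683165 in MeVa2.2.dOVA. On principal components of the 6 libraries the lines separated along the first component, which held 61.5% of the variance. Along the second component (22.3%) MeVa2.1.dOVA replicate 2 stood at -67.2 against 20.1 and 19.7 for replicates 1 and 3 of that line, and MeVa2.2.dOVA replicate 3 stood at 64.1 against -7.74 and -29.0 for the others. Counts with single libraries left out are given with the lists. Of the melanocyte list, 10 of 20 genes were testable. Tyr, the tyrosinase that starts melanin synthesis, reached at most 0.659 counts per 1000000 (CPM) in MeVa2.1.dOVA and 0.158 CPM in MeVa2.2.dOVA. Kit and Oca2 had no count in either line. The labelled melanoma identity was thus not visible in these genes. Other members were counted, and the list summed to 512 to 690 CPM in MeVa2.1.dOVA and 739 to 960 CPM in MeVa2.2.dOVA. Gpnmb and Met made up most of these sums, so they say little about the other members. Met stood at 190, 211 and 193 CPM in MeVa2.1.dOVA and at 160, 182 and 209 CPM in MeVa2.2.dOVA. The list members Mitf and Gpnmb are given further on. Of 20 immune cell markers, 9 had no count in any of the 6 libraries, among them Cd3e, Cd8a, Nkg7 and Ms4a1, and the list summed to 1.83 to 7.65 CPM in MeVa2.1.dOVA and 2.16 to 5.27 CPM in MeVa2.2.dOVA.

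Of 13985 genes tested, 902 were higher (6.45%) and 672 lower (4.81%) in MeVa2.1.dOVA than in MeVa2.2.dOVA at an adjusted p under 0.05, and these are called higher and lower here. Together 1574 genes (11.3%) were called, 1248 of them with at least a 2-fold change. The median log2 fold change of all tested genes was 0.01 and the median size among the called genes was 2.05. In 1560 of the 1574 called genes the 3 libraries of one line did not overlap the 3 of the other; over all tested genes, no overlap was seen for 2274 higher (16.3%) and 1911 lower (13.7%). With the replicate number as a block, 1737 genes were higher (12.4%) and 1342 lower (9.60%), and 1573 of the 1574 calls were kept. Whether the numbers pair the libraries is uncertain, and the main test took no account of them. Between the parental lines, deviations of same-numbered libraries from their line means had r = 0.43, 0.41 and 0.33 for numbers 1, 2 and 3. Between the dOVA lines r was 0.52 and 0.42 for numbers 2 and 3. For number 1 these deviations were only weakly shared between the dOVA lines (r = 0.10). MeVa2.1.dOVA replicate 1 shared more with MeVa2.2.dOVA replicate 3 (r = 0.31). The number of calls moved with single libraries. With MeVa2.1.dOVA replicate 1, 2 or 3 left out it was 813, 1293 or 946. With MeVa2.2.dOVA replicate 1, 2 or 3 left out it was 816, 796 or 2578.

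**Figure D1:**
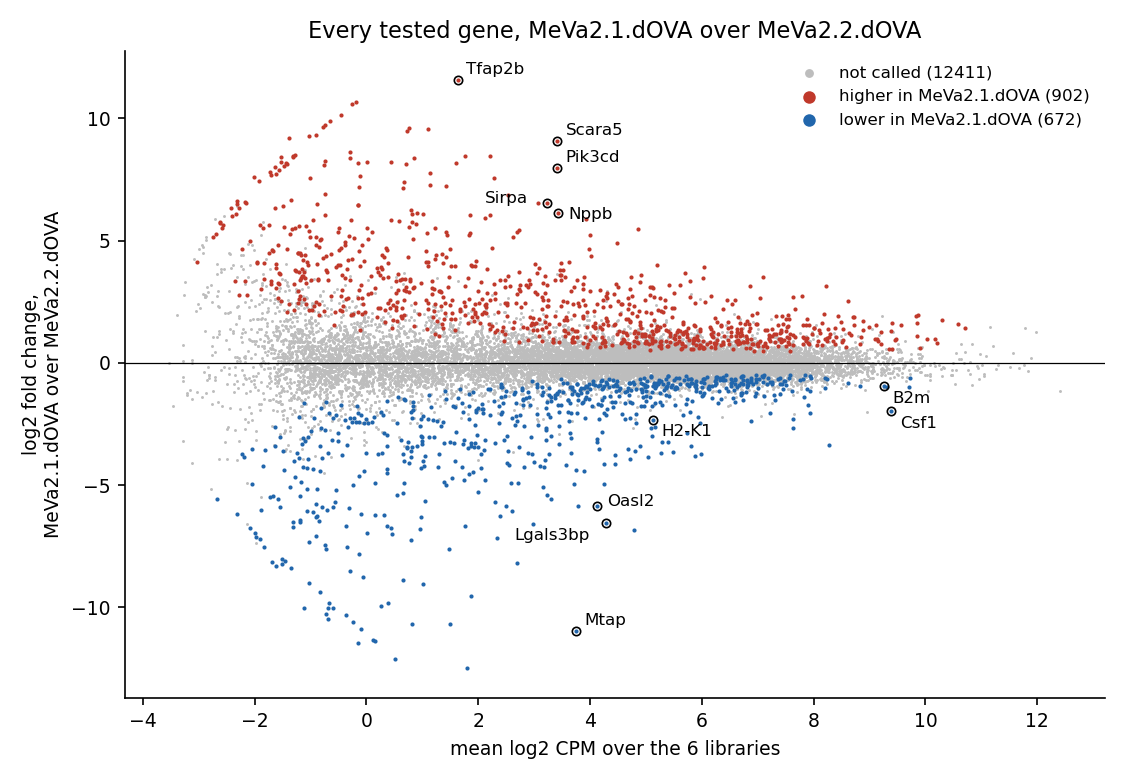
Log2 fold change of MeVa2.1.dOVA over MeVa2.2.dOVA (vertical axis) against the mean log2 CPM over the 6 libraries (horizontal axis) for 13985 tested genes; red points are the 902 higher genes, blue the 672 lower genes and grey the genes not called, and circled genes are named in the text. Genes with no or few counts in a line, at the outer left edges of the cloud, have fitted fold changes that depend on the count added to 0.

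Among genes with a mean of at least 3 on the log2 CPM scale, the largest rise was that of Scara5 (ENSMUSG00000022032, chr14:65666403-65764826, plus strand, GRCm38), a scavenger receptor that binds ferritin. Scara5 stood at 219, 229 and 251 CPM in MeVa2.1.dOVA, against 0.316, 0.388 and 0.529 CPM in MeVa2.2.dOVA (log2 fold change 9.08, SE 0.72, adjusted p = 3.6e-05). Every MeVa2.1.dOVA library lay far above every MeVa2.2.dOVA library. Pik3cd (ENSMUSG00000039936, chr4:149649168-149702571, minus strand), the delta catalytic subunit of PI3-kinase, best known in leukocytes, stood at 169, 243 and 117 CPM in MeVa2.1.dOVA and at 0.791, 0.222 and 1 CPM in MeVa2.2.dOVA (7.95, SE 0.53, adjusted p = 8.3e-06). Both genes were also higher in MeVa2.1 than in MeVa2.2, by log2 fold changes of 7.04 and 7.12. Sirpa (ENSMUSG00000037902, chr2:129592835-129632228, plus strand) encodes the receptor by which macrophages read CD47, the "do not eat me" signal. It stood at 95.8, 85.0 and 85.5 CPM in MeVa2.1.dOVA and at 1.42, 0.997 and 0.529 CPM in MeVa2.2.dOVA (6.54, SE 0.34, adjusted p = 1.47e-06).

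The other 12 of the 15 largest rises included several genes of cell junctions and adhesion. Pkp1, the desmosome protein plakophilin 1, stood at 84.2, 51.3 and 108 CPM in MeVa2.1.dOVA and at 1.32, 0.831 and 0.501 CPM in MeVa2.2.dOVA, and the lines did not overlap (6.56, adjusted p = 5e-05). Nrcam, a neuronal adhesion molecule of the immunoglobulin superfamily, stood at 162, 371 and 144 CPM in MeVa2.1.dOVA, against 5.22, 8.92 and 1.36 CPM in MeVa2.2.dOVA (5.47, adjusted p = 0.00097). Jam2, a junctional adhesion molecule, rose by 4.89, and Ptprm, a homophilic receptor phosphatase, by 4.02. Outside adhesion were Nppb, which encodes the B-type natriuretic peptide (6.12), Enah, an actin regulator (5.89), Cplx2, a complexin of vesicle release (5.25), Sema3b, a secreted semaphorin (4.65), and Car5b, a mitochondrial carbonic anhydrase (4.13). Transcription factors were Tshz3 (4.35), Sox13 (4.07) and Runx3, which stood at 30.8, 24.6 and 48.4 CPM in MeVa2.1.dOVA and at 1.95, 1.05 and 3.12 CPM in MeVa2.2.dOVA (4.06, SE 0.41, adjusted p = 0.000128).

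Of the 15 largest falls by the same rule, 8 belonged to the interferon-stimulated list: Lgals3bp, Oasl2, Gbp3, Rtp4, Trim30a, Parp14, Samd9l and Gbp7. The largest was Mtap (ENSMUSG00000062937, chr4:89137122-89181081, plus strand), the enzyme of methionine salvage, described further on with its chromosomal neighbours. Cd93 and Thbd, both best known from endothelium, were in this group. Cd93 stood at 5.63, 0.533 and 0.86 CPM in MeVa2.1.dOVA, against 137, 149 and 103 CPM in MeVa2.2.dOVA (-5.85, adjusted p = 0.00523), and Thbd, the thrombin receptor thrombomodulin, at 6.18, 2.9 and 0.802 CPM in MeVa2.1.dOVA, against 57.7, 81.7 and 36 CPM in MeVa2.2.dOVA (-4.19). Both separated the lines without overlap. Amigo2, a leucine-rich adhesion molecule, fell by 4.41 on the log2 scale between the dOVA lines and by 4.93 between the parental lines.

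Interferon-stimulated genes were lower in MeVa2.1.dOVA as a list. Of 45 listed genes 44 were tested; 38 were lower and 0 higher (0 higher by DESeq2 or at an unadjusted p under 0.05), against 4.81% lower over all tested genes, and all 44 fold changes were below 0. The median log2 fold change was -4.07, against 0.01 over all tested genes. In 41 of the 44 the lines did not overlap, all in the lower direction, against 13.7% lower without overlap over all tested genes. The members' mean log2 CPM was 1.72, 1.21 and 0.85 in the 3 MeVa2.1.dOVA libraries and 4.98, 4.62 and 6.37 in the 3 MeVa2.2.dOVA libraries, so MeVa2.2.dOVA replicate 3, which stood apart on the second component, was the highest of that line. Without it 32 members were still lower, and without any 1 of the 6 dOVA libraries between 28 and 36. In these bulk samples fewer cells that transcribe a gene and less RNA per cell cannot be told apart.

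Transcription factors of the pathway were themselves lower. Irf9, the DNA-binding partner of STAT2, stood at 7.03, 10.2 and 6.91 CPM in MeVa2.1.dOVA and at 88.1, 84.7 and 120 CPM in MeVa2.2.dOVA (-3.60, SE 0.46, adjusted p = 0.000582). Irf7, which amplifies type I interferon production, stood at 0.489, 0.592 and 0.315 CPM in MeVa2.1.dOVA and at 28.7, 24.7 and 143 CPM in MeVa2.2.dOVA (-7.17, SE 1.03, adjusted p = 0.00126). Each of these separated the lines completely, and Stat2 fell by 3.23 on the log2 scale. Irf9 and Irf7 were also lower in MeVa2.1 than in MeVa2.2, by log2 fold changes of -2.22 and -3.68.

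Some feedback and effector genes were near 0 in MeVa2.1.dOVA, and others were lower at levels that could still be measured. Usp18, the protease that removes ISG15 and damps receptor signalling, had 3 counts in the 3 MeVa2.1.dOVA libraries together and 7595 in the MeVa2.2.dOVA libraries, a ratio of 2364 after depth was taken into account (95% counting interval 809 to 11468). No count was seen in MeVa2.1.dOVA for the 2'-5' oligoadenylate synthetases Oas2, Oas3 and Oas1a, which make the activator of RNase L; against a floor of 3 counts over the line they were at least 465-fold, 235-fold and 204-fold lower. The Oas, Gbp and Ifit genes have near-identical relatives, so reads that match several of them were left uncounted and their levels are uncertain. Ifi44 stood at 0.489, 0.533 and 0.143 CPM in MeVa2.1.dOVA, against 72.5, 74.9 and 163 CPM in MeVa2.2.dOVA (-8.17). Isg15, the ubiquitin-like modifier, stood at 24.2, 10.9 and 8.88 CPM in MeVa2.1.dOVA and at 88.3, 64.2 and 261 CPM in MeVa2.2.dOVA (-3.24, SE 0.84, adjusted p = 0.0302). Bst2, or tetherin, which holds budding virus on the cell, stood at 8.13, 8.76 and 6.71 CPM in MeVa2.1.dOVA and at 50.4, 52.2 and 253 CPM in MeVa2.2.dOVA (-3.92, adjusted p = 0.00306). Lgals3bp (ENSMUSG00000033880, chr11:118392751-118402092, minus strand), a secreted glycoprotein that binds galectins, stood at 3.36, 1.18 and 2.29 CPM in MeVa2.1.dOVA and at 106, 116 and 420 CPM in MeVa2.2.dOVA (-6.55, SE 0.71, adjusted p = 0.000216). In each of these genes the highest MeVa2.1.dOVA library was below the lowest MeVa2.2.dOVA library.

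RNA sensors in the list were lower as well. Ddx58, which encodes RIG-I, stood at 20.4, 24 and 10.4 CPM in MeVa2.1.dOVA and at 183, 191 and 351 CPM in MeVa2.2.dOVA (-3.73), and Ifih1, which encodes MDA5, at 25.6, 12.3 and 3.96 CPM in MeVa2.1.dOVA and at 102, 97.3 and 127 CPM in MeVa2.2.dOVA (-2.97). Eif2ak2, the kinase PKR that halts translation on double-stranded RNA, fell by 2.44 on the log2 scale. The call of Rsad2, the antiviral enzyme viperin, was lost without MeVa2.1.dOVA replicate 1 or replicate 3 (adjusted p up to 0.0631). The 6 members that did not pass were Mx1, Oasl1, Ifit1, Ifitm3, Isg20 and Ifit2. Ifit2 stood at 188, 69.1 and 61.5 CPM in MeVa2.1.dOVA and at 128, 59.3 and 150 CPM in MeVa2.2.dOVA (-0.08, adjusted p = 0.937), with the lines interleaved. Ifitm3 stood at 155, 136 and 125 CPM in MeVa2.1.dOVA, below 269, 302 and 384 CPM in MeVa2.2.dOVA in every library (-1.20, adjusted p = 0.0905; 0.0316 with the replicate block).

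**Figure D2:**
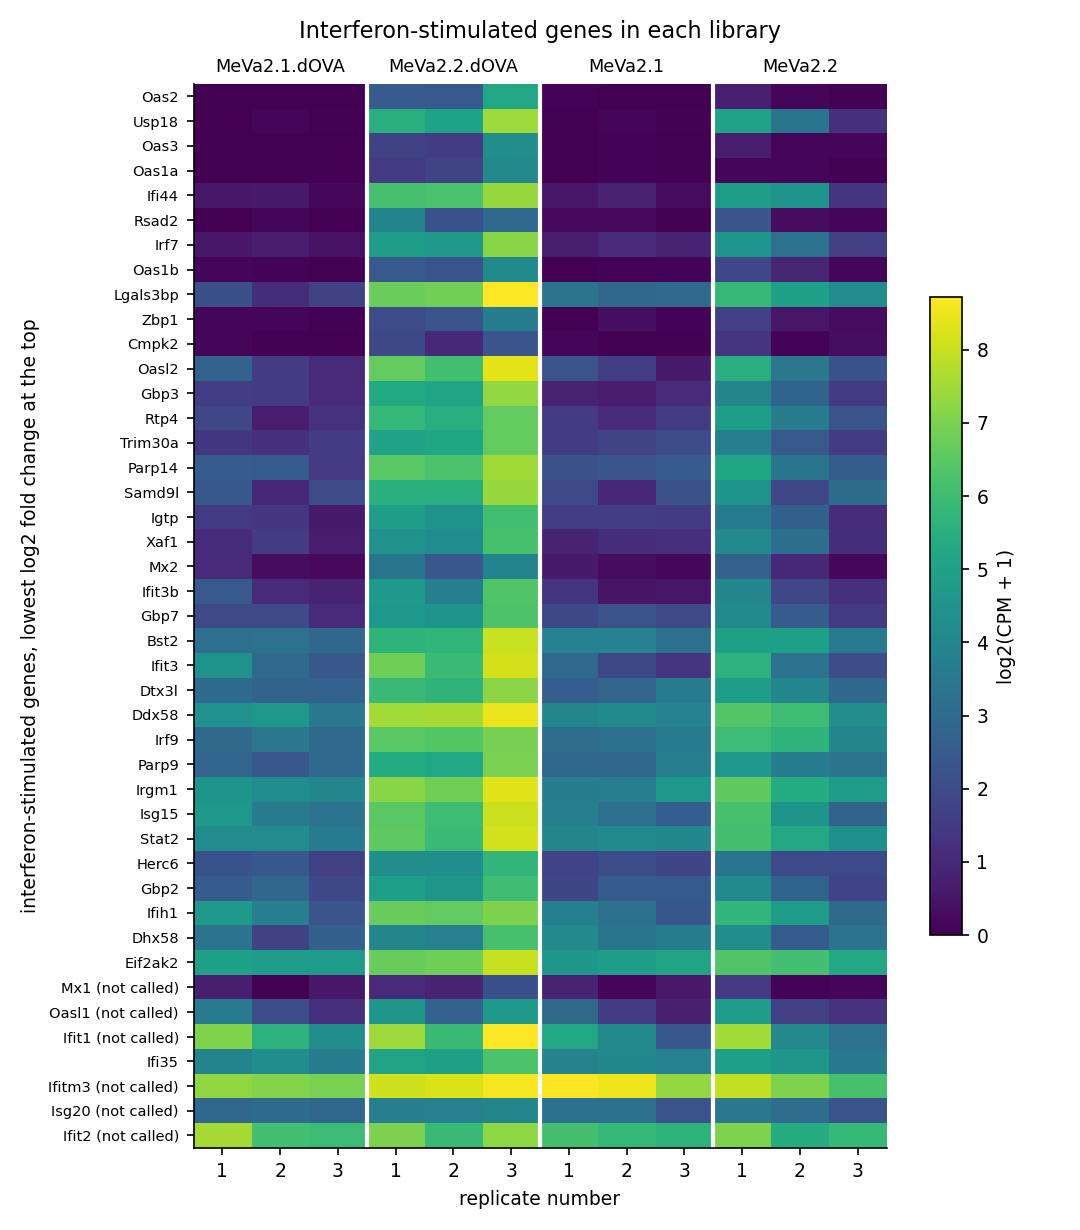
Level of the tested interferon-stimulated genes, 1 of them not shown (rows, lowest log2 fold change at the top), in each library (columns, by line and replicate number), as log2(CPM + 1). The MeVa2.1.dOVA columns are dark for the genes in the upper rows, the MeVa2.2.dOVA columns are bright with replicate 3 the brightest, and MeVa2.2 replicate 3 is darker than MeVa2.2 replicate 1 for most rows.

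The DNA just before the start of these genes was read to show how far the lower genes share the letters that interferon-activated factors recognise. The motif searched was GAAANNGAAA on either strand, the core of the interferon-stimulated response element bound by IRF proteins, in the 250 bases before each RefSeq gene start (GRCm38.p6). The windows of 5 lower genes with the motif and of Lgals3bp, which has none, are printed 5′ to 3′ on the gene's own strand, with the motif in capitals; in Isg15, Bst2 and Gbp3 the capitals cover matches that overlap each other. The lines give, in order, Ifit3 at chr19:34583279-34583528 (plus strand), Isg15 at chr4:156200819-156201068 (minus), Bst2 at chr8:71537473-71537722 (minus), Gbp3 at chr3:142559794-142560043 (plus), B2m at chr2:122147437-122147686 (plus) and Lgals3bp at chr11:118401960-118402209 (minus).
Ifit3: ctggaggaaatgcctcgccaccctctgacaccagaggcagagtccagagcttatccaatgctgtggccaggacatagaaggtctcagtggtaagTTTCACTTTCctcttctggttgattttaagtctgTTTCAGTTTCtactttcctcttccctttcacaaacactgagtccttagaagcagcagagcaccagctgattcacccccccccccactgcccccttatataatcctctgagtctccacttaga
Isg15: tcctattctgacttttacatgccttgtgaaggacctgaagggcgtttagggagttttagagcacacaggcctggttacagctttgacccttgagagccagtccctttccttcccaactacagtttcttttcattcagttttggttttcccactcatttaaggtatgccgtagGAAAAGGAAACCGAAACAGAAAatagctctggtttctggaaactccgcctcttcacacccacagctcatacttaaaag
Bst2: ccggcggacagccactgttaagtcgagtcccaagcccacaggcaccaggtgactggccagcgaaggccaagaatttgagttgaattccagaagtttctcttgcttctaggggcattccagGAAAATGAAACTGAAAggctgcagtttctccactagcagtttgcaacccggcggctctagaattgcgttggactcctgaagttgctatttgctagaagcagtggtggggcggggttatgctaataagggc
Gbp3: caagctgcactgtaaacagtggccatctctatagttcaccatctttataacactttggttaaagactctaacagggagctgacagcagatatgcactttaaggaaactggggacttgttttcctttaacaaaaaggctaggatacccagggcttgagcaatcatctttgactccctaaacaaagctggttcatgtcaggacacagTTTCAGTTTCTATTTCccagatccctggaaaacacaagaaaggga
B2m: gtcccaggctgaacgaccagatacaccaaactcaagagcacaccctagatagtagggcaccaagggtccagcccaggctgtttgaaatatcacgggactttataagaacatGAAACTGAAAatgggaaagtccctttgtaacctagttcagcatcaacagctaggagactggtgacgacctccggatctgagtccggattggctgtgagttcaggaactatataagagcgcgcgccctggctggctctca
Lgals3bp: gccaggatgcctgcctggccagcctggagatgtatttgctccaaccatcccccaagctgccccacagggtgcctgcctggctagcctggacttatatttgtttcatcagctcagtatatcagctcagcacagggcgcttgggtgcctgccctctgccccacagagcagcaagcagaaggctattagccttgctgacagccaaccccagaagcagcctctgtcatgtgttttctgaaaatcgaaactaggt

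The match nearest to the gene start began 122 bases before it in Ifit3, 66 in Isg15, 124 in Bst2, 39 in Gbp3 and 139 in B2m. Of the 44 tested interferon-stimulated genes 33 had a window, and 15 of these (45.5%) held the motif. Among genes with a window, 33 of 466 called lower outside the list (7.08%) held it, as did 16 of 675 called higher (2.37%). Of all tested genes with a window 313 of 9966 (3.14%) held it. A gene was counted if any of its windows held the motif. Counted by window and not by gene, 978 of 32851 RefSeq windows of this length (2.98%) held it. A match says that the letters are there and no more. No match, as in Lgals3bp, says only that no exact copy lies in these 250 bases. Looser forms of the motif were not searched.

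Ifit3, whose window comes first above, stood at 21.2, 6.99 and 4.16 CPM in MeVa2.1.dOVA and at 110, 61.3 and 287 CPM in MeVa2.2.dOVA (-3.83, SE 1.05, adjusted p = 0.0374). Gbp3, a guanylate-binding GTPase, stood at 2.02, 1.89 and 1.03 CPM in MeVa2.1.dOVA and at 37.9, 33.4 and 157 CPM in MeVa2.2.dOVA (-5.56). Neither gene's libraries overlapped between the lines.

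MHC class I presentation was lower too, by less. Of 21 tested genes 11 were lower (4.81% over all tested genes) and 0 higher (DESeq2: 14 lower and 0 higher; at an unadjusted p under 0.05, 15 lower and 0 higher), the median log2 fold change was -1.34, and 15 were lower without overlap (13.7% over all tested genes). The heavy chains came first: H2-K1 (ENSMUSG00000061232, chr17:33996017-34000347, minus strand) stood at 19.7, 17.4 and 10.5 CPM in MeVa2.1.dOVA and at 79.0, 91.0 and 68.0 CPM in MeVa2.2.dOVA (-2.33, SE 0.44, adjusted p = 0.00585). H2-D1 stood at 82.3, 86.4 and 64.8 CPM in MeVa2.1.dOVA, against 189, 204 and 198 CPM in MeVa2.2.dOVA (-1.34, SE 0.26, adjusted p = 0.00694). Both were separated without overlap, as was B2m (ENSMUSG00000060802, chr2:122147686-122153083, plus strand), the light chain shared by all class I molecules, at 448, 490 and 388 CPM in MeVa2.1.dOVA and 849, 785 and 937 CPM in MeVa2.2.dOVA (-0.96, SE 0.23, adjusted p = 0.0194). The classical and nonclassical H2 genes are near-identical in places, so their counts are uncertain in the same way as those of the Oas genes. H2-M3, a nonclassical chain that presents formylated peptides, stood at 0.428, 0.355 and 0.516 CPM in MeVa2.1.dOVA and at 12.3, 13.1 and 14.0 CPM in MeVa2.2.dOVA (-4.88, SE 0.36, adjusted p = 2.35e-05), and was the 1 member also lower in MeVa2.1 than in MeVa2.2. H2-T10 had no count in MeVa2.1.dOVA and 64 in MeVa2.2.dOVA, at least 19.9-fold lower.

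Peptide supply and loading followed the chains in part. Tap2, one subunit of the peptide transporter, stood at 4.16, 2.9 and 1.2 CPM in MeVa2.1.dOVA and at 13.8, 16 and 17.7 CPM in MeVa2.2.dOVA (-2.54). Tap1, its partner, stood at 2.81, 11.8 and 0.516 CPM in MeVa2.1.dOVA and at 20.6, 23.8 and 33.0 CPM in MeVa2.2.dOVA, without overlap, but did not pass (-2.37, adjusted p = 0.0965; 0.0283 with the replicate block). Erap1, which trims peptides in the endoplasmic reticulum, stood at 23.2, 28.2 and 27.1 CPM in MeVa2.1.dOVA and at 52.3, 58.7 and 86.0 CPM in MeVa2.2.dOVA (-1.33). The loading chaperone Tapbp fell by 1.72 on the log2 scale, and the immunoproteasome subunits Psmb8 and Psmb10 by 5.21 and 1.57; without MeVa2.1.dOVA replicate 3 Psmb8 was not called (adjusted p = 0.057). Nlrc5, the transactivator of class I genes, did not pass (-2.29, adjusted p = 0.12; 0.0261 with the block), nor did H2-T22 (-1.25; 0.0186 with the block) or Psme2 (-0.71; 0.0203 with the block). With the block 15 members were lower. The general endoplasmic reticulum chaperones Canx, Calr and Pdia3 did not pass.

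Receptors and kinases upstream showed no common direction. Of 17 tested genes 2 were higher and 3 lower, against 6.45% and 4.81% over all tested genes. The median was 0.01, the same as over all tested genes. Ifnar1, a chain of the type I interferon receptor, stood at 78.8, 74.2 and 75.4 CPM in MeVa2.1.dOVA and at 55.0, 54.7 and 58.9 CPM in MeVa2.2.dOVA (0.44, adjusted p = 0.0836; 0.049 with the replicate block), higher in every MeVa2.1.dOVA library. The differences of Ifnar2 (0.19), Ifngr1 (-0.54), Jak1 (0.01) and Irf1 (-0.97) did not pass; these and Ifnar1 were chosen for naming after their values were seen. Socs3, a feedback inhibitor of JAK kinases, stood at 36.8, 34.2 and 37.8 CPM in MeVa2.1.dOVA and at 15.8, 13.5 and 14.4 CPM in MeVa2.2.dOVA (1.32, adjusted p = 0.0237). Tlr3, the endosomal sensor of double-stranded RNA, stood at 3.85, 1.54 and 3.67 CPM in MeVa2.1.dOVA and at 13, 13.4 and 28.1 CPM in MeVa2.2.dOVA (-2.58), without overlap. Tmem173, which encodes the DNA-sensing adaptor STING, stood at 16.8, 3.67 and 12.4 CPM in MeVa2.1.dOVA and at 40.8, 35.1 and 33.2 CPM in MeVa2.2.dOVA (-1.73, adjusted p = 0.0336). Calls were lost for Tyk2 (1.19) when any of 9 libraries was left out (adjusted p up to 0.154), for Ifngr2 (-1.03) with 7 (0.154), for Socs3 with 4 (0.0955) and for Tmem173 with 3 (0.103).

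Checkpoint genes restrain T cells and phagocytes. The list includes ligands of inhibitory receptors, and also Sirpa, which is itself such a receptor. Of 22 tested, 4 were higher and 0 lower, against 6.45% and 4.81% over all tested genes. DESeq2 called 8 higher and 2 lower, and 2 were lower at an unadjusted p under 0.05. Beside Sirpa these were Ceacam1, Cd276 and Nectin3. Ceacam1, a ligand of itself and of TIM-3, stood at 40.3, 18.1 and 27.4 CPM in MeVa2.1.dOVA, against 3.74, 1.94 and 3.25 CPM in MeVa2.2.dOVA (3.26, SE 0.39, adjusted p = 0.000399), and Cd276, the B7-H3 molecule, at 79.5, 60.7 and 102 CPM in MeVa2.1.dOVA, against 16.5, 9.92 and 3.98 CPM in MeVa2.2.dOVA (3, SE 0.50, adjusted p = 0.00296). Both separated the lines and were also higher in MeVa2.1 than in MeVa2.2 (2.49 and 3.36). Nectin3 stood at 146, 136 and 127 CPM in MeVa2.1.dOVA and at 73.9, 74.2 and 75.9 CPM in MeVa2.2.dOVA (0.87, adjusted p = 0.0197), a call lost when the first replicate of either line, or the second of MeVa2.2.dOVA, was left out (up to 0.0756). Cd274, the PD-L1 ligand, stood at 3.06, 5.92 and 3.30 CPM in MeVa2.1.dOVA and at 10.8, 8.92 and 7.79 CPM in MeVa2.2.dOVA, lower in every library, but did not pass (-1.17, adjusted p = 0.214). Cd47 stood at 68.0, 96.5 and 101 CPM in MeVa2.1.dOVA and at 96.2, 137 and 107 CPM in MeVa2.2.dOVA, with overlap (-0.35, adjusted p = 0.422). Cd80, a costimulatory ligand, stood at 26.1, 47.6 and 14.8 CPM in MeVa2.1.dOVA and at 138, 169 and 30.8 CPM in MeVa2.2.dOVA (-1.94, adjusted p = 0.0899; 0.00654 with the block). Of 7 tested ligands of NK cell receptors, Cadm1 was lower, at 89.1, 82.1 and 115 CPM in MeVa2.1.dOVA and 215, 226 and 379 CPM in MeVa2.2.dOVA (-1.52), and the call of Ulbp1 (1.17) was lost with 8 of the 12 libraries left out in turn (adjusted p up to 0.156).

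Among 25 tested chemokines and cytokines 2 were higher and 4 lower, against 6.45% and 4.81% over all tested genes. The median was -0.85 (2 higher and 8 lower with the replicate block). Il34, an alternative ligand of the macrophage CSF1 receptor, stood at 155, 120 and 97.5 CPM in MeVa2.1.dOVA and at 12.3, 18.8 and 20.5 CPM in MeVa2.2.dOVA (2.85, SE 0.28, adjusted p = 0.000103). Csf1 (ENSMUSG00000014599, chr3:107741048-107760469, minus strand), the other ligand of that receptor, went the opposite way, at 334, 312 and 420 CPM in MeVa2.1.dOVA and at 1292, 2101 and 768 CPM in MeVa2.2.dOVA (-1.96, SE 0.47, adjusted p = 0.0203). The lines did not overlap in either gene. Csf1 was not called without any 1 of 5 libraries (adjusted p up to 0.0904). Lif, an interleukin-6 family cytokine, stood at 3.61, 3.85 and 1.81 CPM in MeVa2.1.dOVA and at 34.4, 75.0 and 11.1 CPM in MeVa2.2.dOVA (-3.71). Cxcl12, which draws CXCR4-bearing cells, stood at 5.5, 1.42 and 4.21 CPM in MeVa2.1.dOVA and at 24.5, 31.6 and 33 CPM in MeVa2.2.dOVA (-3). Cxcl14 was counted in all 3 MeVa2.1.dOVA libraries (1.47, 0.355 and 2.29 CPM) and in none of MeVa2.2.dOVA. The receptors matched Lif in direction: Lifr fell by 4.88 and Osmr, for oncostatin M, by 2.24 on the log2 scale, calls that were lost with 4 and 3 of the libraries left out in turn (adjusted p up to 0.0954 and 0.0641), MeVa2.1.dOVA replicate 3 among them. Of 22 cytokine receptors 4 were higher and 4 lower, against the same 6.45% and 4.81%. None of 14 NF-kB genes was called by edgeR (2 higher and 4 lower at an unadjusted p under 0.05; DESeq2 called 1 in each direction; without MeVa2.2.dOVA replicate 3, 6 were lower).

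**Figure D3:**
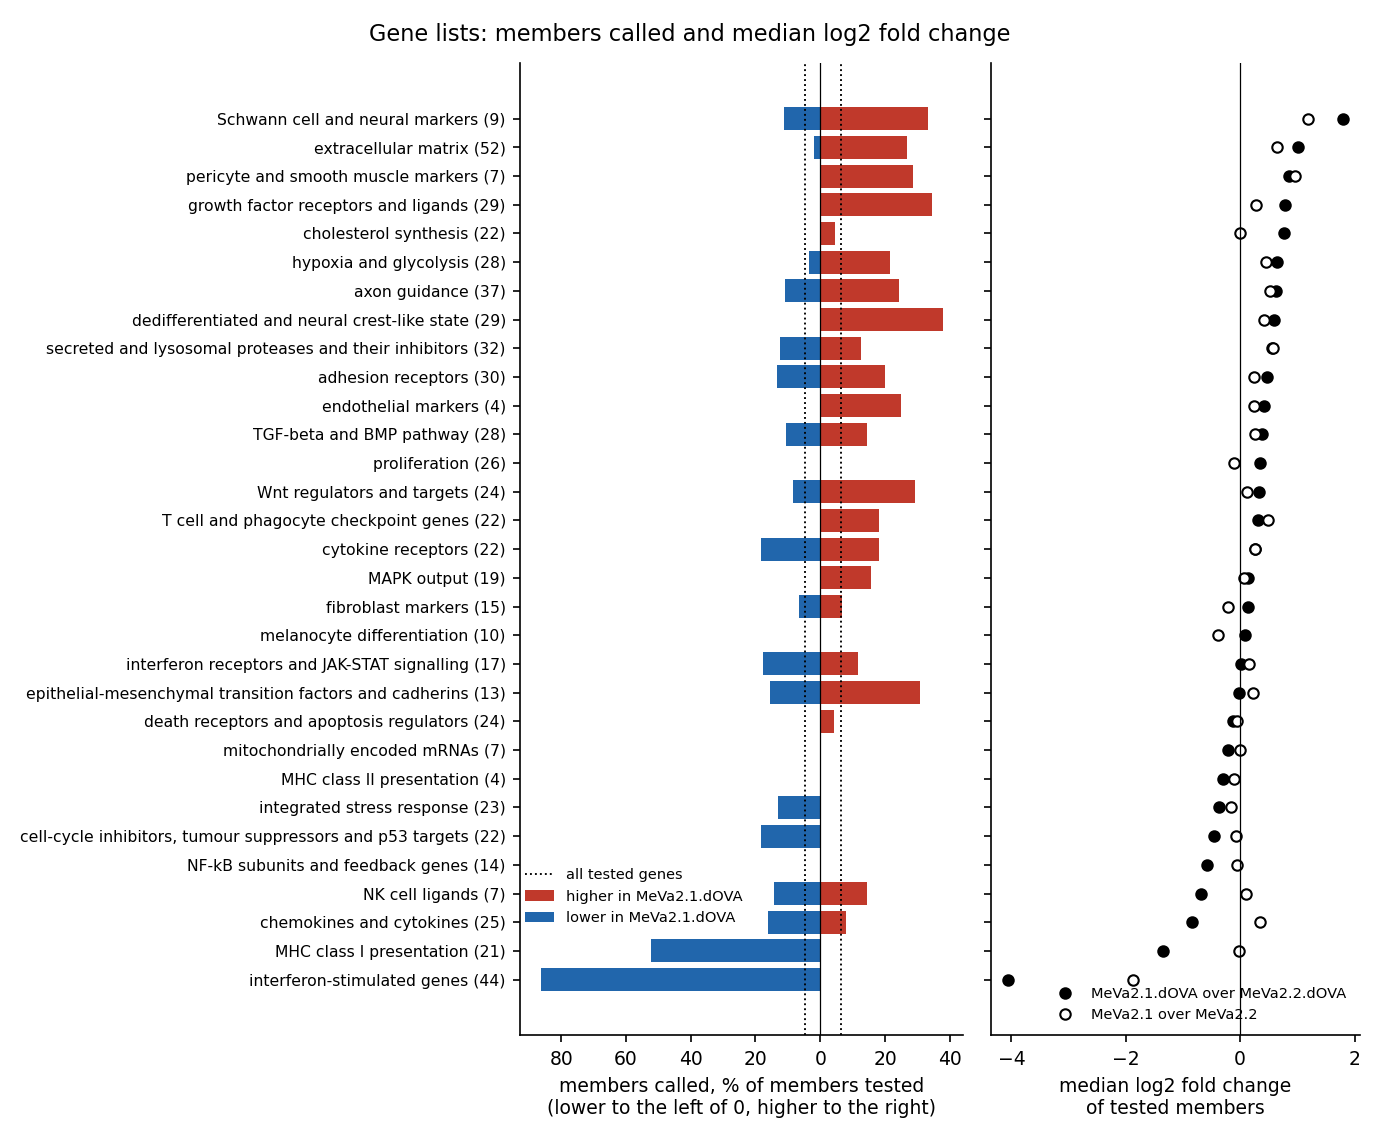
Left, the percent of a list's tested members (number in parentheses) called lower, to the left of 0, or higher, to the right of 0, in MeVa2.1.dOVA. Only lists with at least 4 tested members are drawn, and dotted lines mark the shares of all tested genes (4.81% and 6.45%). Right, the median log2 fold change of the members for MeVa2.1.dOVA over MeVa2.2.dOVA (filled) and MeVa2.1 over MeVa2.2 (open); the interferon-stimulated genes lie at -4.07 and -1.88.

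None of the 10 testable melanocyte genes was called (edgeR; 1 higher and 1 lower at an unadjusted p under 0.05; DESeq2 0). Mitf, the master regulator of melanocytes, stood at 14, 9.12 and 12.4 CPM in MeVa2.1.dOVA and at 13.9, 9.2 and 10.8 CPM in MeVa2.2.dOVA (0.07), and Gpnmb, a MITF-driven glycoprotein, at 422, 467 and 304 CPM in MeVa2.1.dOVA and at 662, 547 and 738 CPM in MeVa2.2.dOVA (-0.71, adjusted p = 0.244). Genes of the dedifferentiated, neural crest-like state were higher in 11 of 29 tested and lower in 0 (edgeR; 3 lower at an unadjusted p under 0.05; DESeq2 12 higher and 2 lower), against 6.45% higher over all genes. Tfap2b (ENSMUSG00000025927, chr1:19208914-19238576, plus strand), an AP-2 factor of the neural crest, stood at 111, 59.9 and 123 CPM in MeVa2.1.dOVA, while MeVa2.2.dOVA had 2 counts in its 3 libraries together, a ratio of 3812 (95% counting interval 1055 to 31486). Foxd3, which marks early neural crest, stood at 4.10, 7.10 and 10.8 CPM in MeVa2.1.dOVA and was nearly absent from MeVa2.2.dOVA (ratio 605, interval 108 to 23936), as was Ror2, a receptor for WNT5A, at 9.60, 3.91 and 7.71 CPM in MeVa2.1.dOVA (ratio 176, interval 59.7 to 854). These 3 were also higher in MeVa2.1 than in MeVa2.2. Aqp1, a water channel, stood at 1195, 1018 and 896 CPM in MeVa2.1.dOVA and at 88.8, 105 and 347 CPM in MeVa2.2.dOVA (2.52, adjusted p = 0.0199; not called when the first replicate of either line or the second of MeVa2.2.dOVA was left out, up to 0.0909). The receptor tyrosine kinase Axl, a mark of the same state chosen for naming after its values were seen, was abundant in both, at 1792, 1581 and 1836 CPM in MeVa2.1.dOVA and 1216, 1311 and 1372 CPM in MeVa2.2.dOVA (0.42, adjusted p = 0.122). The count of 11 depended on single libraries: it was 5 or 7 with MeVa2.1.dOVA replicate 1 or 3 left out, and 6 or 4 with MeVa2.2.dOVA replicate 1 or 2 left out. With MeVa2.2.dOVA replicate 3 left out it was 10, and 4 members were lower.

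Markers of other cell types that share the neural crest or a mesenchymal program are given beside these genes. Their part in the result was not tested. Over all tested genes 6.45% were higher and 4.81% lower. Pericyte and smooth muscle markers summed to 851 to 1270 CPM in MeVa2.1.dOVA and 77.2 to 420 CPM in MeVa2.2.dOVA, with 2 of 7 tested higher. Of these Cspg4, the NG2 proteoglycan that melanoma cells also carry, made up most of the sum in MeVa2.1.dOVA. Cspg4 stood at 1205, 916 and 702 CPM in MeVa2.1.dOVA and at 104, 54.1 and 163 CPM in MeVa2.2.dOVA (3.14). Schwann cell and neural markers summed to 81.9 to 132 CPM in MeVa2.1.dOVA and 15.8 to 81.4 CPM in MeVa2.2.dOVA, with 3 of 9 tested higher and 1 lower. Fibroblast markers overlapped between the lines (2399 to 4814 CPM in MeVa2.1.dOVA, 1631 to 5931 CPM in MeVa2.2.dOVA; 1 of 15 tested higher and 1 lower), as did endothelial markers (289 to 346 CPM in MeVa2.1.dOVA, 241 to 432 CPM in MeVa2.2.dOVA; 1 of 4 tested higher). Keratinocyte markers summed to 13.2 to 17.4 CPM in MeVa2.1.dOVA and 8.23 to 9.86 CPM in MeVa2.2.dOVA, without overlap, with 1 of 3 tested higher. The called endothelial gene, Flt1, and the called keratinocyte gene, Lgals7, were each not called with any of 9 libraries left out (adjusted p up to 0.162 and 0.169).

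Of the transcription factors and cadherins of epithelial-mesenchymal transition, 4 of 13 were higher and 2 lower, against 6.45% and 4.81% over all tested genes. Twist2 stood at 46.4, 23.5 and 28.5 CPM in MeVa2.1.dOVA and at 5.75, 5.26 and 7.07 CPM in MeVa2.2.dOVA (2.44), whereas Snai1, another inducer of the transition, stood at 2.32, 2.13 and 2.09 CPM in MeVa2.1.dOVA and at 9.28, 8.98 and 5.70 CPM in MeVa2.2.dOVA (-1.87). The cadherins split as well. Cdh13 stood at 423, 404 and 328 CPM in MeVa2.1.dOVA and at 92.6, 49.9 and 156 CPM in MeVa2.2.dOVA (1.95; not called without MeVa2.2.dOVA replicate 1, adjusted p = 0.0605). Cdh6 stood at 24.8, 15.9 and 10.8 CPM in MeVa2.1.dOVA, against 358, 264 and 103 CPM in MeVa2.2.dOVA (-3.82).

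Of 52 extracellular matrix genes tested, 14 were higher (6.45% over all tested genes) and 1 lower, 38 fold changes were above 0 and the median was 1.02. Sparcl1, a matricellular protein, stood at 114, 48.4 and 75.2 CPM in MeVa2.1.dOVA, against 0.105, 0.277 and 0.25 CPM in MeVa2.2.dOVA (8.48, SE 0.85, adjusted p = 0.000121). Col15a1, a basement membrane collagen, stood at 87.6, 11.8 and 39.2 CPM in MeVa2.1.dOVA and at 0.158, 0 and 0.0278 CPM in MeVa2.2.dOVA (adjusted p = 0.00377). Lox, which crosslinks collagen and elastin, stood at 21.8, 5.09 and 58.4 CPM in MeVa2.1.dOVA and at 0.158, 0.166 and 0.195 CPM in MeVa2.2.dOVA (7.30). All 3 were far higher in each MeVa2.1.dOVA library, with replicate 2 the lowest of them. Fbln2, a fibulin, rose by 5.13. Loxl1, a relative of Lox, was the lower gene (-3.27), a call lost without the third replicate of MeVa2.1.dOVA or the second of MeVa2.2.dOVA (adjusted p up to 0.0756). With the replicate block 21 members were higher and 4 lower. With MeVa2.1.dOVA replicate 1, 2 or 3 left out the higher members numbered 10, 14 or 12, and with MeVa2.2.dOVA replicate 1, 2 or 3 left out they numbered 9, 10 or 21.

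Adhesion receptors included 6 higher and 4 lower genes of 30 tested. Over all tested genes 6.45% were higher and 4.81% lower, which also applies to the protease count below. Itga4, the alpha 4 integrin that binds VCAM-1 and fibronectin, stood at 415, 97 and 154 CPM in MeVa2.1.dOVA and at 15.3, 6.70 and 29.2 CPM in MeVa2.2.dOVA (3.69), and Itgb3, the beta chain of the vitronectin receptor, at 16.7, 2.13 and 14.8 CPM in MeVa2.1.dOVA and at 0.316, 0.111 and 0.167 CPM in MeVa2.2.dOVA (5.81). Both were separated without overlap. Of 32 proteases and inhibitors 4 were higher and 4 lower (8 and 5 with the block); the higher ones included Timp3, a matrix-bound metalloproteinase inhibitor, at 350, 298 and 1090 CPM in MeVa2.1.dOVA and 60.1, 61.8 and 144 CPM in MeVa2.2.dOVA (2.71; not called without MeVa2.2.dOVA replicate 1 or 2, adjusted p up to 0.0572). Of 37 axon guidance genes 9 were higher and 4 lower, against 6.45% and 4.81% over all tested genes. Slit3, a repulsive ligand, stood at 294, 350 and 425 CPM in MeVa2.1.dOVA and at 43.5, 25 and 53 CPM in MeVa2.2.dOVA (3.14), and Ephb4, a receptor of ephrin B2, at 43.4, 42.3 and 38.3 CPM in MeVa2.1.dOVA and at 5.27, 1.22 and 3.76 CPM in MeVa2.2.dOVA (3.59). Efna5, an ephrin ligand, was lower, at 2.45, 4.32 and 3.98 CPM in MeVa2.1.dOVA and 22.9, 31.5 and 19.0 CPM in MeVa2.2.dOVA (-2.76).

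Secreted antagonists of Wnt signalling were among the higher genes of that pathway. In it 7 of 24 tested were higher and 2 lower, against 6.45% and 4.81% over all tested genes. Sfrp1 had 602 counts in MeVa2.1.dOVA and none in MeVa2.2.dOVA, at least 215-fold higher. Dkk2 stood at 615, 73.2 and 389 CPM in MeVa2.1.dOVA and at 22.1, 4.65 and 44.3 CPM in MeVa2.2.dOVA (3.91; not called when the first replicate of either line was left out, adjusted p up to 0.0756). Notum, which inactivates Wnt proteins, rose by 4.71, and Nkd2, an intracellular antagonist, stood at 31.3, 4.62 and 17.6 CPM in MeVa2.1.dOVA and at 0.211, 0.0554 and 0.0556 CPM in MeVa2.2.dOVA (7.41). The nuclear factors of the pathway diverged: Tcf7 stood at 79.5, 42.7 and 79.8 CPM in MeVa2.1.dOVA and at 9.76, 6.43 and 7.37 CPM in MeVa2.2.dOVA (3.10), while Lef1 fell by 2.30 on the log2 scale, a call lost with 4 libraries left out in turn (adjusted p up to 0.121).

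Of 28 genes of the TGF-beta and BMP pathway 4 were higher and 3 lower (9 and 5 with the replicate block). Over all tested genes 6.45% were higher and 4.81% lower, which also applies to the growth factor and MAPK counts below. Fstl1, a follistatin-like secreted protein, stood at 504, 342 and 530 CPM in MeVa2.1.dOVA and at 62, 76.5 and 157 CPM in MeVa2.2.dOVA (2.22), and Inhba, the activin A subunit, at 170, 106 and 166 CPM in MeVa2.1.dOVA and at 51, 52.6 and 59.7 CPM in MeVa2.2.dOVA (1.44). Tgfbr2, the ligand-binding TGF-beta receptor, was lower, at 56.8, 42.7 and 47.9 CPM in MeVa2.1.dOVA and 88.6, 89.4 and 119 CPM in MeVa2.2.dOVA (-1.01). All 3 were separated without overlap. Growth factors and their receptors were higher in 10 of 29 and lower in 0 (edgeR; 1 lower at an unadjusted p under 0.05; DESeq2 10 higher and 1 lower), among them Pdgfb (4.59), Ednra (4.21) and Fgf2 (2.02; lost with 4 libraries left out in turn, adjusted p up to 0.0618). Of 19 MAPK output genes 3 were higher, and 0 lower by edgeR, DESeq2 or an unadjusted p under 0.05. Among the higher ones was Ccnd1, cyclin D1, at 1503, 1608 and 1618 CPM in MeVa2.1.dOVA and 1079, 838 and 751 CPM in MeVa2.2.dOVA (0.83). The call of Ccnd1 was lost without MeVa2.2.dOVA replicate 2 (adjusted p = 0.0558).

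Proliferation genes did not pass in either direction: of 26 tested, 0 were called by edgeR or DESeq2 and 0 had an unadjusted p under 0.05, with a median of 0.35 and 23 fold changes above 0. Mki67, chosen for naming after its values were seen, stood at 451, 124 and 317 CPM in MeVa2.1.dOVA and at 101, 59.1 and 437 CPM in MeVa2.2.dOVA, and the lines overlapped. All 22 tested genes of cholesterol synthesis had fold changes above 0, with a median of 0.76, but 1 was called: Sqle, squalene epoxidase, at 161, 133 and 178 CPM in MeVa2.1.dOVA and 55.6, 51.1 and 87.9 CPM in MeVa2.2.dOVA (1.28, adjusted p = 0.0322; lost with 4 libraries left out in turn, up to 0.142). With the replicate block 7 were higher, and between the parental lines the median was -0.01. Hypoxia and glycolysis genes were higher in 6 of 28 and lower in 1 (14 and 1 with the block). Over all tested genes 6.45% were higher and 4.81% lower. Slc2a3, a high-affinity glucose transporter, stood at 39, 19.2 and 21.3 CPM in MeVa2.1.dOVA and at 0.105, 0 and 0 CPM in MeVa2.2.dOVA (ratio 913, interval 252 to 7543). Of 23 integrated stress response genes 3 were lower, against the same 4.81%, and 0 higher by edgeR, DESeq2 or an unadjusted p under 0.05. Slc7a11, the cystine transporter, stood at 85, 92.7 and 79.5 CPM in MeVa2.1.dOVA and at 603, 857 and 190 CPM in MeVa2.2.dOVA (-2.68).

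Calls in most of these lists depended on single libraries, given here for MeVa2.1.dOVA replicates 1, 2 and 3 left out in turn, then MeVa2.2.dOVA replicates 1, 2 and 3. Calls over all tested genes moved as well. There 468, 820 and 580, then 466, 419 and 1441 genes were higher, against 902 with all libraries. Lower were 345, 473 and 366, then 350, 377 and 1137 genes, against 672. A shift in a list's count is therefore not by itself a trait of that list. The higher axon guidance genes numbered 4, 10 and 6, then 4, 4 and 10, and the lower ones 2, 1 and 1, then 1, 1 and 4. For growth factors and receptors the higher count was 4, 7 and 7, then 4, 4 and 9. Both higher counts were lowest with the first replicate of MeVa2.1.dOVA or the first or second of MeVa2.2.dOVA left out, and high with the third of MeVa2.2.dOVA left out. Cytokine receptors had 0, 3 and 2, then 1, 0 and 3 higher, and 1, 2 and 1, then 2, 2 and 4 lower. Chemokines and cytokines had 2 lower in every case but the last, with 4. Adhesion receptors had 1, 1 and 2, then 1, 2 and 4 lower. In each of these lists the last of the 6 counts was as high as any other. Proteases and inhibitors had 2, 5 and 2, then 1, 1 and 3 higher, and 2, 2 and 1, then 2, 2 and 3 lower. Factors and cadherins of epithelial-mesenchymal transition had 2, 3 and 3, then 1, 2 and 5 higher. MAPK output genes had 3, 2 and 1, then 1, 0 and 4 higher. In these lists the count without the second replicate of MeVa2.2.dOVA was the lowest or next to it. Genes of hypoxia and glycolysis had 4, 5 and 4, then 3, 3 and 9 higher. Interferon receptors and JAK-STAT genes had 2, 5 and 1, then 1, 1 and 4 lower. Wnt regulators and targets had 5, 7 and 7, then 6, 5 and 9 higher, and 1, 0 and 0, then 0, 0 and 3 lower. In each of these lists the last count was above the one before it. TGF-beta and BMP genes had 4, 4 and 4, then 3, 3 and 6 higher, and 2, 2 and 1, then 2, 2 and 4 lower. Cholesterol synthesis genes had 0, 2 and 0, then 0, 0 and 5 higher. Integrated stress response genes had 1, 3 and 3, then 3, 2 and 3 lower. The cholesterol calls were thus mostly seen with the third replicate of MeVa2.2.dOVA left out, where calls over all tested genes were also most numerous. Schwann cell and neural markers had 1, 3 and 2, then 1, 1 and 4 higher, and 0 lower in all 6 cases. Fibroblast markers had 0, 1 and 1, then 1, 0 and 3 higher, and 1, 1 and 0, then 1, 0 and 1 lower. Pericyte and smooth muscle markers had 2, 1 and 2, then 2, 1 and 2 higher. The pericyte count thus moved by no more than 1. In the interferon-stimulated and MHC class I lists no left-out library moved the count by over 1.5 times, and the MHC class I count lay between 8 and 11. With the replicate block, where 12.4% of all tested genes were higher and 9.60% lower, counts moved by over 1.5 times in further lists. Interferon receptors and JAK-STAT genes had 4 higher and 4 lower, Wnt genes 7 and 4, and fibroblast markers 3 and 3. MAPK output genes had 5 higher and 0 lower, endothelial markers 2 and 0, growth factors and receptors 12 and 2, and the dedifferentiated state 12 and 2. Checkpoint genes had 5 higher and 1 lower, NK cell ligands 1 and 2, NF-kB genes 1 and 1, immune cell markers 1 and 0, and melanocyte genes 0 and 1.

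Of the 22 tested cell-cycle inhibitors, tumor suppressors and p53 targets 4 were lower (4.81% over all tested genes). With the replicate block 8 were lower and 1 higher. With MeVa2.1.dOVA replicate 1, 2 or 3 left out 2, 5 or 3 were lower, and with MeVa2.2.dOVA replicate 1, 2 or 3 left out 3, 2 or 6 were lower. Those furthest apart lay together on chromosome 4. From Klhl9 to Dmrta1 (chr4:88718292-89694772, 976 kb) the annotation lists 49 genes, of which 9 were tested and all 9 were lower. The genes of the block held 4, 5 and 13 counts in the MeVa2.1.dOVA libraries and 15299, 12990 and 23501 in the MeVa2.2.dOVA libraries. Mtap alone stood at 0.122, 0.296 and 0.344 CPM in MeVa2.1.dOVA and at 635, 526 and 503 CPM in MeVa2.2.dOVA (-10.97, SE 0.38, adjusted p = 5.23e-08), and Klhl9, chosen for naming after its values were seen, had 1 count in MeVa2.1.dOVA and 8426 in MeVa2.2.dOVA. Cdkn2a, which encodes the p16 and p19 cell-cycle inhibitors, had no count in MeVa2.1.dOVA and 40 in MeVa2.2.dOVA, at least 12.5-fold lower. The parental lines showed the same: the block held 21 counts in MeVa2.1 and 65645 in MeVa2.2, and all 9 tested genes were lower. DNA copy number was not measured here. Braf, the kinase whose activation drives many melanomas, stood at 45.6, 58.6 and 42.7 CPM in MeVa2.1.dOVA and at 106, 120 and 80.3 CPM in MeVa2.2.dOVA (-1.06, adjusted p = 0.0227; lost with 4 libraries left out in turn, up to 0.0832).

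Braf lies on the low-numbered part of chromosome 6, where many genes were modestly lower. In the first 8 windows of 25 genes along that chromosome (chr6:3372257-81965958, 200 genes) the median log2 fold change was -0.44. Of these genes 155 (77.5%) had a fold change below 0, and 38 were lower and 9 higher. In the other 11 windows 141 of 275 genes (51.3%) were below 0, and 12 were lower and 14 higher. Over all tested genes 4.81% were lower and 6.45% higher. The median of the first 8 windows was -0.37, -0.54 and -0.32 in the pairs of libraries with replicate numbers 1, 2 and 3. In the other 11 windows of the chromosome it was -0.02, and between the parental lines the first 8 windows had a median of -0.02. Over all 395 windows of the genome the 5th and 95th percentiles were -0.27 and 0.30. In the same 200 genes MeVa2.1.dOVA minus MeVa2.1 had a median of 0.00 and MeVa2.2.dOVA minus MeVa2.2 of 0.40. The stretch was chosen after its values were seen.

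**Figure D4:**
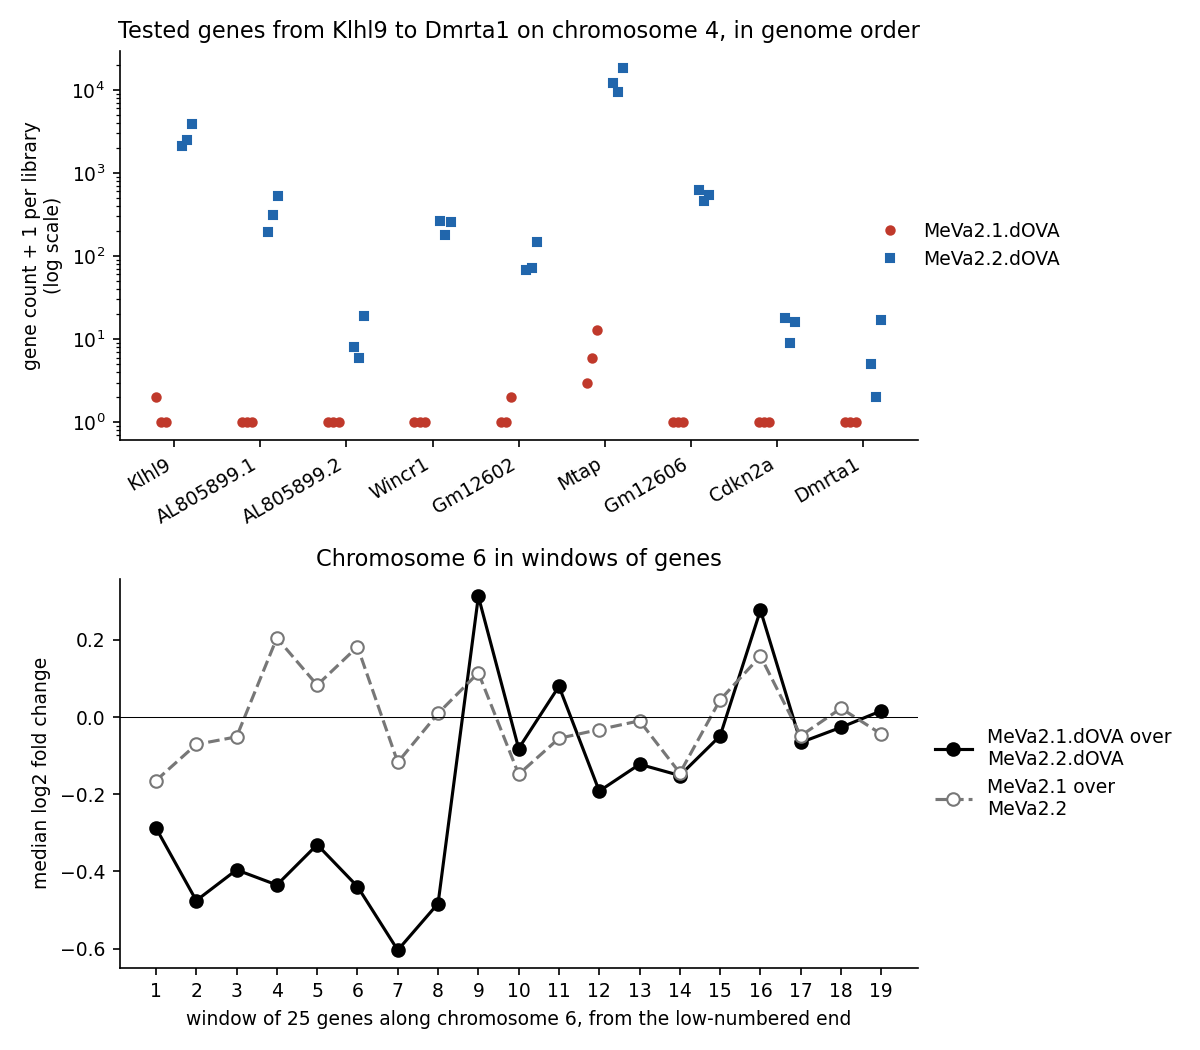
Top, counts plus 1 (log scale) in each of the 3 MeVa2.1.dOVA libraries (red) and 3 MeVa2.2.dOVA libraries (blue) for the 9 tested genes from Klhl9 to Dmrta1 on chromosome 4. Bottom, median log2 fold change in windows of 25 genes along chromosome 6 for MeVa2.1.dOVA over MeVa2.2.dOVA (filled) and MeVa2.1 over MeVa2.2 (open); the first 8 windows lie between -0.60 and -0.29 in the dOVA lines.

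Many of the differences were also present between the parental lines, whose libraries the dOVA comparison does not use, although the 12 libraries share 1 estimate of the spread. Between MeVa2.1 and MeVa2.2, 395 genes were higher (2.82%) and 232 lower (1.66%), 627 in all (4.48%). Of the 902 genes higher in MeVa2.1.dOVA 269 were also higher in MeVa2.1, and of the 672 lower genes 148 were also lower; 1 gene in each direction was called the opposite way. The shared calls were 26.5% of the calls between the dOVA lines and 66.5% of those between the parental lines. The sign was the same in 90.7% of the called genes and in 69.3% of those not called. Across the 13985 genes the log2 fold changes of both comparisons had r = 0.74, a description over genes that are not independent.

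Interferon-stimulated and MHC class I genes differed less between the parental lines. The median of the interferon list was -1.88 there, with 6 of 44 members lower (27 at an unadjusted p under 0.05; DESeq2 18), and that of the MHC class I list was -0.01. Within MeVa2.2 the libraries varied: Usp18 stood at 0, 0.109 and 0.0274 CPM in MeVa2.1 and at 31.4, 9.45 and 1.33 CPM in MeVa2.2, and Isg15 at 12.5, 8.04 and 5.08 CPM in MeVa2.1 and at 71.8, 21.8 and 5.93 CPM in MeVa2.2, so replicate 3 of MeVa2.2 lay within the range of MeVa2.1 in Isg15. H2-K1 stood at 61.3, 33.9 and 20.2 CPM in MeVa2.1 and at 28.9, 22.6 and 11.4 CPM in MeVa2.2, the opposite order to the dOVA lines, without a call. The test of the difference between both line differences called 0 members of either list in edgeR (22 interferon genes and 12 class I genes lower at an unadjusted p under 0.05; DESeq2 8 and 7 lower), so a larger difference between the dOVA lines did not pass the main test for any single member.

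**Figure D5:**
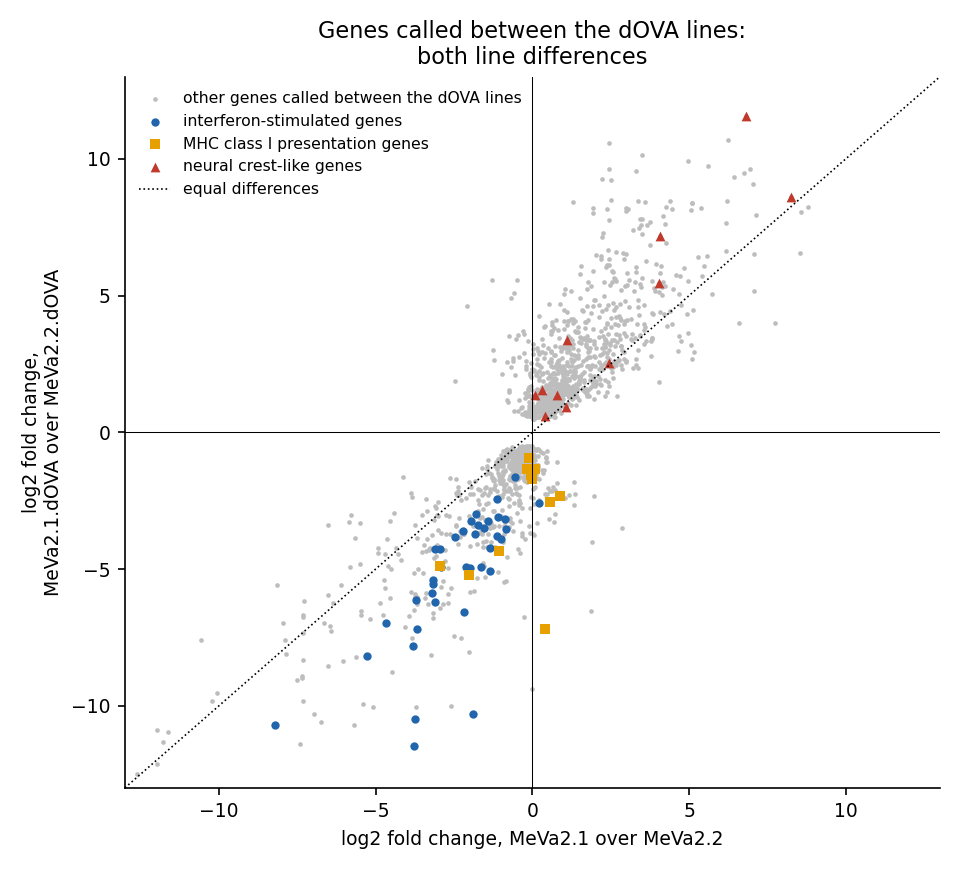
Log2 fold change of MeVa2.1.dOVA over MeVa2.2.dOVA (vertical) against that of MeVa2.1 over MeVa2.2 (horizontal) for the 1574 genes called between the dOVA lines, with interferon-stimulated (blue), MHC class I (orange) and neural crest-like genes (red) marked and a dotted line where both differences are equal. The interferon genes lie mostly below that line, farther from 0 in the dOVA lines.

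Over all genes 12 passed that test (0.0858%), 7 with a higher (0.0501%) and 5 with a lower (0.0358%) difference in the dOVA lines, and 1187 had an unadjusted p under 0.05 (DESeq2 called 272). Sirpa was among them: it stood at 76.8, 119 and 95.2 CPM in MeVa2.1 and at 11.8, 12.5 and 12.4 CPM in MeVa2.2, so its difference was larger between the dOVA lines by 3.55 on the log2 scale (SE 0.40, adjusted p = 0.0119). Single libraries set that count. Leaving out MeVa2.1.dOVA replicate 1, 2 or 3 gave 4, 4 or 0, and leaving out MeVa2.2.dOVA replicate 1, 2 or 3 gave 13, 4 or 4. For the parental lines it was 1, 4 or 1 with MeVa2.1 replicate 1, 2 or 3 left out and 0, 11 or 12 with MeVa2.2 replicate 1, 2 or 3 left out. With the replicate block 118 passed.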

How the data were processed

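RNA-seq was made from 12 libraries, 3 for each of 4 mouse lines. RNA was extracted with an RNeasy kit and made into stranded mRNA libraries (TruSeq), per the labels' protocols. The deposited files hold raw counts per Ensembl gene, made by the authors with STAR 2.6.0c and HTSeq 0.10.0 on GRCm38, per the submitters' processing notes, which also name DESeq2 1.30.1. The strand setting and the origin of the replicates are not given in the sources used here, and a gene and an overlapping antisense partner may share reads. HTSeq's 5 tally lines (35.8% to 40.0% of each library) were left out, so that 16181816 to 35627069 gene counts per library remained over 55471 gene IDs. Of these 55230 were found in GENCODE M21 (GRCm38), which gave symbols and coordinates.

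Genes with few counts were removed (edgeR's filterByExpr), leaving 13985; libraries were scaled by TMM, and edgeR 4.0.16 (R 4.3.3, limma 3.58.1) fitted 1 mean per line to all 12 libraries with its quasi-likelihood test (8 residual degrees of freedom) and Benjamini-Hochberg adjustment over all tested genes, called under 0.05. All adjusted p-values come from it unless DESeq2 1.42.0 is named. The SE is the log2 fold change divided by the square root of F, so it restates the test. CPM are TMM-scaled counts per 1000000. For a gene with 0 counts in a line the fold change is a bound against 3 counts over its 3 libraries; with 1 to 3 counts it is a ratio with a 95% interval that covers counting error only. The fit was run on simulated data with known changes. Those counts were drawn without deviations shared between libraries, so the simulation does not cover such sharing. Replicates of a line differed by more than sampling noise.

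Same-numbered libraries of the dOVA lines deviated together for numbers 2 and 3 (r = 0.52 and 0.42). For number 1 r was 0.10, just over the limit of 0.1. MeVa2.1.dOVA replicate 1 shared more with MeVa2.2.dOVA replicate 3 (r = 0.31). Each number carries 1 number shared over all lines in the deposited file names. The replicate block took the numbers to pair the libraries, and the main fit did not. Which of these fits the origin of the libraries is not given in the labels. The fit with the replicate block is given beside named genes that it called or lost. It is also given for described lists whose count it moved by over 1.5 times. The members, gene lists and tests were chosen with earlier results of these data known. Genes named are the 15 largest fold changes per direction (mean log2 CPM at least 3, no overlap between the lines), the called members of each of 35 lists (the 6 largest where more than 6 were called), the 2 most abundant members where fewer than 2 were called, and any member of the interferon-stimulated, MHC class I, checkpoint, melanocyte and sex-chromosome lists; others are said to be chosen after their values were seen. Alternatives were DESeq2, RLE scaling, no low-count filter, the compared lines alone, the replicate block, a minimum of 2-fold, and each library left out. Promoter sequences are RefSeq's (GRCm38.p6). Some genes that the rule would name are not reported here.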

Additional observations from a re-analysis of the deposited data

Results flagged for a closer look

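In 12 genes the difference between MeVa2.1.dOVA and MeVa2.2.dOVA differed from that between MeVa2.1 and MeVa2.2, by edgeR's quasi-likelihood test of the difference of differences with Benjamini-Hochberg adjustment. In the dOVA lines 7 had the higher difference, on the log2 scale: B3galnt1 by 6.30 (adjusted p = 0.039), Usp13 by 4.28 (0.0357), Radil by 4.03 (0.0455), Sirpa by 3.55 (0.0119), Rnf130 by 3.49 (0.0411), Rap1gap2 by 3.11 (0.0357) and Trib1 by 2.16 (0.039). The other 5 had the lower difference: Hdx by -6.50 (0.0119), Lrfn3 by -4.28 (0.0121), Carmn by -3.72 (0.039), Brdt by -3.44 (0.039) and Pcdhgb2 by -2.49 (0.0357).

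Hdx, a homeodomain gene, stood at 0.122, 0.118 and 0.0573 CPM in MeVa2.1.dOVA and 10.9, 14.5 and 6.23 CPM in MeVa2.2.dOVA, while the parental lines were close, at 2.18, 0.875 and 0.961 CPM in MeVa2.1 and 1.45, 1.62 and 1.71 CPM in MeVa2.2. Lrfn3, a synaptic adhesion gene, was called in opposite directions, at 0.673, 1.12 and 0.974 CPM in MeVa2.1.dOVA, 4.38, 5.82 and 3.73 CPM in MeVa2.2.dOVA, 2.13, 1.53 and 1.92 CPM in MeVa2.1 and 0.406, 0.594 and 0.418 CPM in MeVa2.2. Usp13, a deubiquitinase, stood at 11.7, 9.53 and 6.96 CPM in MeVa2.1.dOVA and 1.16, 0.388 and 0.862 CPM in MeVa2.2.dOVA, and at 4.2, 5.52 and 4.14 CPM in MeVa2.1 and 5.75, 5.94 and 11.5 CPM in MeVa2.2. Trib1, a pseudokinase, stood at 77.5, 93.8 and 72.2 CPM in MeVa2.1.dOVA and 21.8, 18.9 and 17 CPM in MeVa2.2.dOVA, and at 54.9, 44.6 and 40.3 CPM in MeVa2.1 and 37.2, 45.8 and 64.6 CPM in MeVa2.2. Carmn, a noncoding RNA of smooth muscle, was the 1 gene not called between the dOVA lines (4.71, 2.43 and 2.89 CPM in MeVa2.1.dOVA, 1.05, 1.72 and 2.03 CPM in MeVa2.2.dOVA), against 32.7, 42.5 and 21.2 CPM in MeVa2.1 and 0.871, 1.67 and 0.988 CPM in MeVa2.2. Rnf130, a ubiquitin ligase gene, stood at 29.7, 43.7 and 28.4 CPM in MeVa2.1.dOVA and 3.53, 2.22 and 1.17 CPM in MeVa2.2.dOVA, and at 21.4, 33.7 and 19.5 CPM in MeVa2.1 and 19.5, 21.8 and 14.9 CPM in MeVa2.2. Pcdhgb2 belongs to a protocadherin cluster whose genes overlap, so its counts are uncertain. Not every one of the 12 passed when single libraries were left out (0 to 13 genes passed).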

How the results depend on the processing

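Calls between MeVa2.1.dOVA and MeVa2.2.dOVA numbered 1574 (902 higher, 672 lower). They were 2370 (1327 higher, 1043 lower) by DESeq2, 1025 (582 higher, 443 lower) with the compared lines alone and 3079 (1737 higher, 1342 lower) with the replicate block, which pairs same-numbered libraries; RLE scaling gave 1576 and no low-count filter 1752. Leaving out each of the 12 libraries gave 796 to 2578 (419 to 1441 higher, 345 to 1137 lower). Between MeVa2.1 and MeVa2.2, 627 were called, and 1224 by DESeq2, 397 with these lines alone, 969 with no filter, 1330 with the block and 279 to 775 with a library left out. The difference of differences called 12, and 272 by DESeq2, 161 with no filter, 118 with the block and 0 to 13 with a library left out. Among 192 genes followed, Ifit2 changed sign, to 0.15 and 0.18 without MeVa2.1.dOVA replicate 2 and 3 and to 0.01 and 0.18 without MeVa2.2.dOVA replicate 1 and 3, over a range of -0.79 to 0.18, and was not called in any of these fits. Of the 154 called genes followed, 95 kept the call with every library left out. Not every library correlated best with its own number. The causes of these shifts were not tested. Depth limits the genes with few counts, whose bounds and ratios cover counting error only; with 3 libraries per line, a difference that did not pass is not shown to be absent.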

Other observations

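Genes of the PYHIN family, whose products sense DNA in the nucleus and cytosol and which lie in a cluster on chromosome 1, were chosen after their values were seen. Of 11 tested 8 were lower in MeVa2.1.dOVA, against 4.81% over all tested genes, with a median log2 fold change of -3.04. Ifi203 stood at 0.55, 0.355 and 0.831 CPM in MeVa2.1.dOVA and at 36.6, 30.2 and 73.7 CPM in MeVa2.2.dOVA (-6.27), and was also lower in MeVa2.1 than in MeVa2.2 (-3.32). Ifi204 stood at 17, 16.8 and 10.1 CPM in MeVa2.1.dOVA and at 79.7, 84.7 and 104 CPM in MeVa2.2.dOVA (-2.61). Ifi206 had 1 count in MeVa2.1.dOVA and 670 in MeVa2.2.dOVA (ratio 626, 95% counting interval 112 to 24752), and Ifi208, with no count in MeVa2.1.dOVA, was at least 109-fold lower. Aim2, which starts the DNA inflammasome, went the other way and did not pass (1.46, adjusted p = 0.12; 0.0489 with the replicate block). These genes are similar in sequence, and reads that match several were left uncounted.

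Small heat-shock proteins, chaperones that hold unfolded proteins, were also chosen after their values were seen; 4 of 7 tested were higher, against 6.45% over all tested genes, with a median of 3.52. Hspb8 stood at 60.4, 56.2 and 45.9 CPM in MeVa2.1.dOVA and at 0.158, 0.0554 and 0.195 CPM in MeVa2.2.dOVA (8.48, SE 0.46, adjusted p = 1.47e-06), and was also higher in MeVa2.1 than in MeVa2.2 (6.21). Cryab, alpha B-crystallin, stood at 650, 568 and 308 CPM in MeVa2.1.dOVA and at 49.5, 18.4 and 64.7 CPM in MeVa2.2.dOVA (3.52). Hspb2, its neighbour in the genome, stood at 31.7, 20.7 and 23.4 CPM in MeVa2.1.dOVA and at 1.48, 0.499 and 6.18 CPM in MeVa2.2.dOVA (3.17), a call lost without MeVa2.2.dOVA replicate 1 (adjusted p = 0.0685).

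Chromosomes 13 and 16 were chosen after their values were seen, for their medians. Of 553 tested genes on chromosome 13, 8.86% were higher and 1.08% lower (median log2 fold change 0.23), and of 435 on chromosome 16, 8.05% were higher and 2.30% lower (0.18), against 6.45% higher and 4.81% lower over all chromosomes; between the parental lines these medians were -0.04 and -0.03.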
